A study of Mus musculus with 18 samples.

Results

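Proteasome subunit genes were examined in B cells of spleen and Peyer's patches (PP), lymphoid tissue of the small intestine, by bulk RNA-Seq. Genes were taken by symbol, as every row of the deposited table whose name is Psm, a letter from a to g, and a number. The rule gave 50 of the 55491 genes in the table, and 5 further rows with names ending in -ps, which mark pseudogenes, were left out. The naming rule itself uses no measured value, but the members were chosen with earlier results of these data known. The 50 genes were divided by role. The constitutive 20S core has 7 alpha ring genes (Psma1 to Psma7) and 7 beta ring genes (Psmb1 to Psmb7), and the immunoproteasome has 3 (Psmb8, Psmb9 and Psmb10). The 19S regulatory particle has 6 ATPase genes (Psmc1 to Psmc6) and 11 other subunit genes of the Psmd series. The remaining genes are 3 chaperones of 19S assembly (Psmd5, Psmd9 and Psmd10), 4 chaperones of 20S assembly (Psmg1 to Psmg4), 6 activators and inhibitors (Psme1, Psme2, Psme2b, Psme3, Psme4 and Psmf1), the tissue-restricted core subunits Psma8 and Psmb11, and Psmc3ip. Psmc3ip met the naming rule but encodes a protein of meiotic recombination that was named for binding Psmc3.

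All mice were female BALB/cJ, labelled as 10 to 12 weeks old, and had been sensitized i.p. with 20 μg ovalbumin (OVA) in 1 mg alum on days 0 and 14. They then received PBS (100 μL), soluble OVA (100 μg), or OVA-encapsulating nanoparticles (OVA NPs, 2.5 mg) i.v. on days 28 and 42, and B cells were taken on day 44 by magnetic negative selection. Each of the 6 combinations of tissue and treatment has 3 libraries labelled as biological replicates. The PBS mice were sensitized too, so no group shows unsensitized B cells, and the sources used here do not say whether spleen and PP libraries came from the same mice. For the spleen PBS and OVA NP groups the study gives as many mice as there are libraries, and for the other groups the sources do not say whether a library pools mice. P-values therefore measure the spread between these libraries.

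The proteasome degrades proteins that carry ubiquitin chains. Its 20S core is a barrel whose inner beta rings hold the cutting sites, carried by Psmb5, Psmb6, and Psmb7, and its 19S cap recognizes, unfolds, and admits the substrate. In lymphocytes, Psmb8, Psmb9, and Psmb10 replace Psmb5, Psmb6, and Psmb7 in newly made cores to form the immunoproteasome, which is known for making peptides that MHC class I can present. The proteasome also degrades IκB, the inhibitor of NF-κB, and for this reason pathway collections file its subunits under NF-κB activation in B cells.

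Library totals ran from 14177253 to 30052297 counts, and the 50 genes took between 0.376% and 0.518% of the counts. The 7 B cell markers examined (such as Cd79a and Pax5) summed to between 7631 and 9171 normalised CPM (counts scaled to a common library size) in spleen libraries and 5627 and 7079 CPM in PP libraries, and 6 of the 7 were called lower in PP than in spleen within each treatment. The 6 T cell markers summed to between 1.43 and 4.17 CPM in spleen libraries, 9.23 and 14.4 CPM in PP PBS, 5.25 and 11.3 CPM in PP soluble OVA, and 20.2 and 29.0 CPM in PP OVA NP. Mitochondrial genes took 9.08% to 9.80% of the counts in PP OVA NP libraries and 2.82% to 7.67% in all others. The set of 12 proliferation genes (such as Mki67, Top2a, and Mcm5) summed to between 711 and 819 CPM in spleen PBS, 1596 and 1764 in spleen soluble OVA, 1425 and 1855 in spleen OVA NP, 2089 and 2579 in PP PBS, 4678 and 5080 in PP soluble OVA, and 1668 and 2409 in PP OVA NP. None of the T cell markers was at 0 in every library of a group.

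The immunoproteasome genes Psmb8 and Psmb9 lie 9956 bases apart on chromosome 17 (GRCm38). Tap1 encodes a subunit of the transporter that carries peptides to MHC class I. The annotated starts of Psmb9 (34187330) and Tap1 (34187556) are 225 bases apart on opposite strands. The distance to Psmb8 was instead counted from 34187764, a Psmb9 gene bound that lies past this Tap1 start. The distance between the starts of Psmb9 and Tap1 therefore depends on the annotation. Psme1 and Psme2, which encode the PA28 activator, lie 5911 bases apart on chromosome 14. Psmb10 is on chromosome 8, which also holds the 19S gene Psmd7. Promoter windows of RefSeq (GRCm38.p6) were found for 42 of the 50 genes, in 45 windows, and 4 motifs known for regulators of proteasome or MHC genes were searched on both strands. TGACNNNGC, the core of the antioxidant response element bound by the proteasome regulator NRF1 (gene Nfe2l1), was in 13.3% of the member windows and in 12.4% of all 32851 windows. CCAAT, the NF-Y box, was in 33.3% and 37.4%. A pair of GAAA repeats with NN between them, an interferon regulatory factor element, was in 11.1% and 3.44%, or 5 member windows (Psmb3, Psmd4, Psmd9, Psme1, and Psmg4). GGG followed by NNNNN and CC, an NF-κB core, was in 55.6% and 50.8%. A match describes letters only. Sequence just upstream of the annotated gene is shown for a constitutive and an inducible active-site gene whose levels behaved differently below (Psmb5 and Psmb10), for Psmb6, and for Psmd14, the member that carried the largest changes among 19S genes, with capitals only for the match to TGACNNNGC in Psmb5 and Psmb6 and for ATTGG, the reverse complement of CCAAT, in Psmd14 and in a 30-base stretch across the start of Psmb9. The Psmb10 window held none of the 4 motifs.
Psmb5, chr14:54618023-54618222, minus strand: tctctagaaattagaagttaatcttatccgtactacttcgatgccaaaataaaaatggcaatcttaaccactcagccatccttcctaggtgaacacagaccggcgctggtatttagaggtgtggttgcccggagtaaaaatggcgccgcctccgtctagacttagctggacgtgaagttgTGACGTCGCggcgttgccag
Psmb6, chr11:70525157-70525356, plus strand: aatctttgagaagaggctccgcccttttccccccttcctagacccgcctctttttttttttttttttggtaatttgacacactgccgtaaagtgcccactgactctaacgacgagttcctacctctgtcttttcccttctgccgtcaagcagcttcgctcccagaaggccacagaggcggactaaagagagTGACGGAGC
Psmb10, chr8:105938445-105938642, minus strand: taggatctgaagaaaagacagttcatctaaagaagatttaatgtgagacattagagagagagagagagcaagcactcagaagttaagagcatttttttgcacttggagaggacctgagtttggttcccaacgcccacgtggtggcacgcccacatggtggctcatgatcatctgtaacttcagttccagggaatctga
Psmd14, chr2:61711494-61711693, plus strand: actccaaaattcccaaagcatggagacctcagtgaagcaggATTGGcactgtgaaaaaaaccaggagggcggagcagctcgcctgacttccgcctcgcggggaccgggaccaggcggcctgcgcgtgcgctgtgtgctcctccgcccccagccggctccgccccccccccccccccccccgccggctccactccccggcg
Psmb9, chr17:34187322-34187351, minus strand: cgcgcagccgctgATTGGaaagccgagccc

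Nearly all of these genes were expressed in every library. Levels are compared between genes as CPM per kb of exon. In spleen PBS, the median was 32.7 CPM per kb for the alpha ring (range, 18.1 for Psma3 to 55.5 for Psma6), 31.6 for the constitutive beta ring (15.9 for Psmb7 to 60.8 for Psmb2), 36.0 for the 19S ATPases, and 25.5 for the other 19S subunits. The immunoproteasome genes were in the same range or above it, at 65.6 CPM per kb for Psmb8, 41.4 for Psmb10, and 21.8 for Psmb9. Psme1 was the highest of all 50 genes in this group at 76.4 CPM per kb. The divisor was the union of all annotated exons, 3381 bases for Psmb8 and 899 for Psmb5, and the ranking between genes depends on it. By CPM without length, Psmb8 was the highest at 222, with Psme1 at 169 and Psmb5 at 51.8. Chaperones were lower, with a median of 7.46 CPM per kb for 19S assembly and 10.5 for 20S assembly. Psma8, a testis subunit, had between 0 and 21 counts per library, and Psmb11, a thymus subunit, had between 0 and 7. Psmb11 passed the count filter in no comparison and Psma8 in all except PP OVA NP versus PBS, so that 49 members were tested in each comparison and 48 in that one. Psma8 was called in none of them.

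In each comparison, a gene was called when its adjusted p in edgeR's quasi-likelihood test, over all genes tested, was under 0.05 and its log2 fold change was beyond 0.25 in either direction. The share of all tested genes called in the same direction is given beside the first count of each comparison. That share applies to later counts of the comparison only where the fit and thresholds are the same. For other fits, such as those with a library left out or a replicate block, a share is given only where printed beside the count. Counts from other fits that lack a share cannot be set against that of the main fit. Values after ± are standard errors for log2 fold changes and SD (n = 3) for levels.

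**Figure D1:**
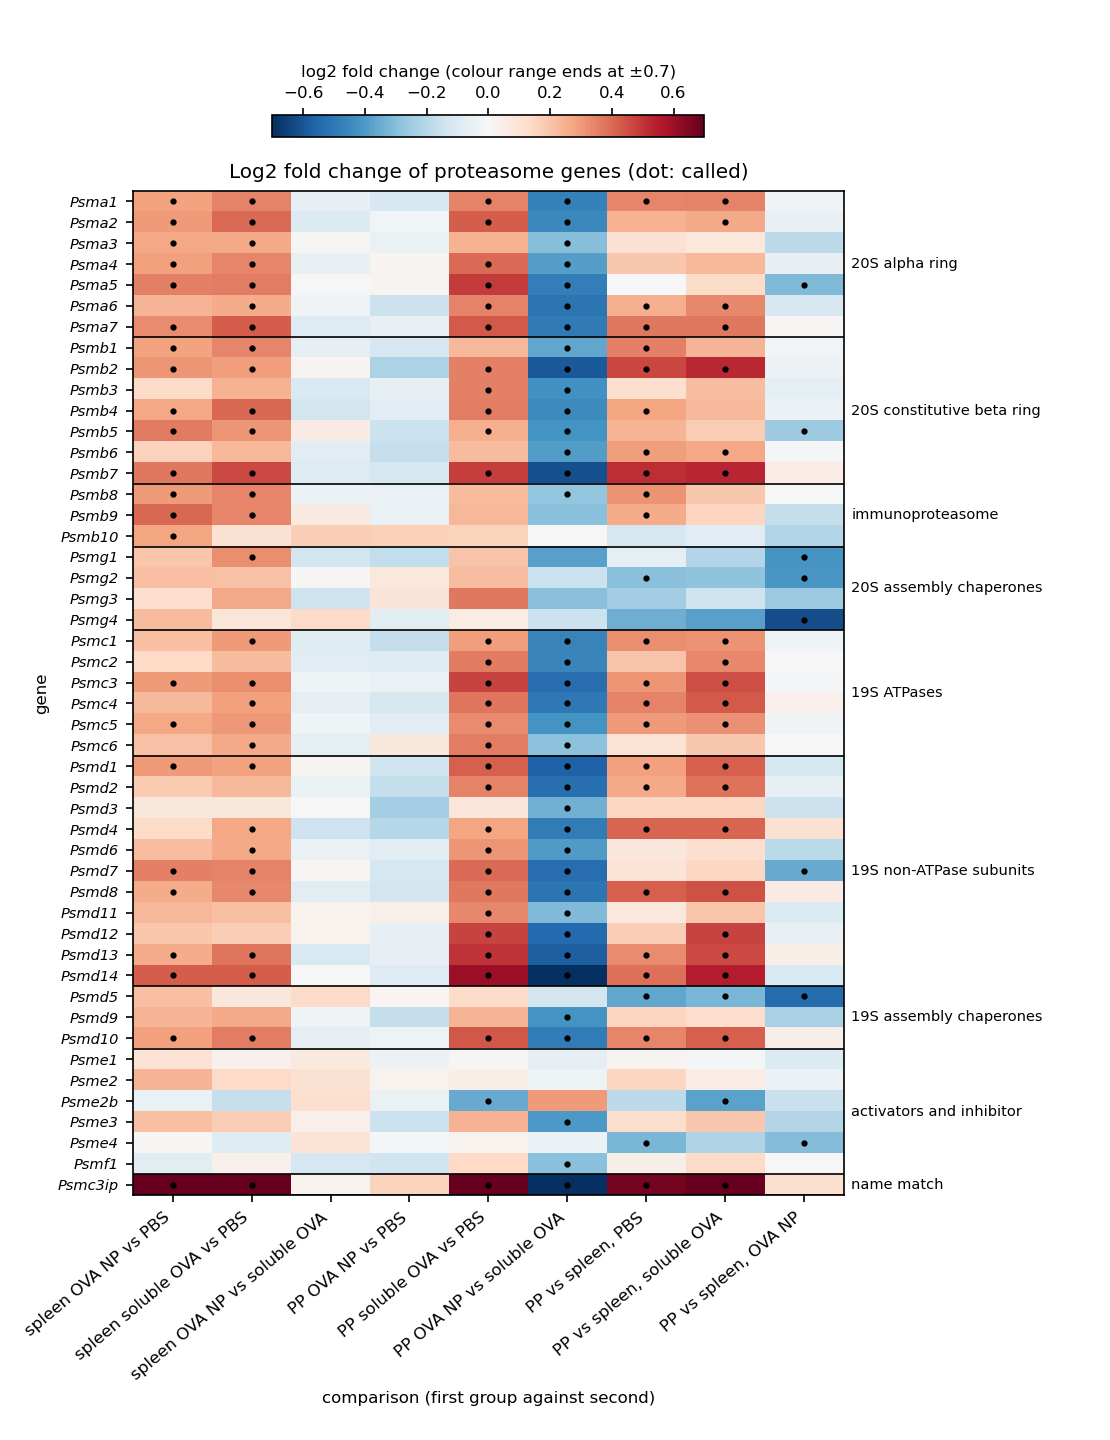
Log2 fold change of 48 proteasome genes (rows, grouped by role) in 9 comparisons (columns), with the colour range ending at ±0.7 and a dot where the gene was called. Most 20S core and 19S genes are red with a dot in both columns of soluble OVA versus PBS, 37 genes are blue with a dot in PP OVA NP versus soluble OVA, and the columns of spleen OVA NP versus soluble OVA and PP OVA NP versus PBS hold none.

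The first question was which proteasome genes differed in splenic B cells after OVA NP treatment. Compared with PBS, 23 of 49 members were called higher and 0 lower, whereas 8.6% of all tested genes were called higher and 6.35% lower. The members' median log2 fold change was 0.24, against 0.00062 for all tested genes. By adjusted p alone, without the fold cutoff, 34 were higher (11.4% of all tested genes). The 3 libraries of each group did not overlap for 38 members, all higher with OVA NPs (18.7% of all tested genes). Of these genes, 6 of 7 in the alpha ring, 5 of 7 in the constitutive beta ring, 3 of 3 in the immunoproteasome, 2 of 6 ATPases, and 5 of 11 other 19S subunits were called. None of the 6 activators and inhibitors and none of the 4 Psmg chaperones was called by edgeR or DESeq2, where 2 and 1 had an unadjusted p under 0.05.

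All 3 immunoproteasome genes rose in spleen with OVA NPs. Psmb8, the chymotrypsin-like immunosubunit, was at 213, 228, and 224 CPM in the spleen PBS libraries and at 267, 274, and 274 CPM in the OVA NP libraries. Every OVA NP library was above every PBS library, with a log2 fold change of 0.30 ± 0.05 (adjusted p = 0.00089). Psmb9, whose position in the core is that of Psmb6, was at 78.6, 76.8, and 83.4 CPM with PBS and 100, 108, and 106 CPM with OVA NPs. The groups were again separate, and the log2 fold change of 0.40 ± 0.05 (adjusted p = 0.00014) was the third largest among the members. Psmb10 was at 71.0, 68.7, and 72.3 CPM with PBS and 80.4, 89.3, and 86.1 CPM with OVA NPs, with a log2 fold change of 0.28 ± 0.06 (adjusted p = 0.0027). Without OVA NP replicate 2, Psmb10 was at 0.24 and no longer past the fold cutoff.

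The constitutive active-site genes rose less evenly. Psmb5, the chymotrypsin-like subunit of the constitutive core, was at 51.0, 52.5, and 51.9 CPM with PBS and 68.4, 70.6, and 60.7 CPM with OVA NPs. The log2 fold change was 0.37 ± 0.07 (adjusted p = 0.0012), and the groups did not overlap. Psmb7, the trypsin-like subunit, was higher by 0.37 ± 0.07 (adjusted p = 0.0016). Psmb6, the caspase-like subunit, was at 59.2 ± 0.93 CPM with PBS and 65.9 ± 1.6 with OVA NPs, a log2 difference of 0.16 ± 0.05 that did not pass (adjusted p = 0.051). In the 19S particle, Psmd14, the deubiquitinase that removes ubiquitin chains before degradation, was at 50.5, 49.6, and 52.7 CPM with PBS and 73.3, 63.1, and 67.7 with OVA NPs. Its log2 fold change of 0.42 ± 0.06 (adjusted p = 0.00039) was the largest among genes of the proteasome itself. Psma5 and Psma7 of the alpha ring rose by 0.35 and 0.33 and Psmd7, a lid subunit, by 0.35. Psmc3ip rose most, from 4.97 ± 0.065 CPM to 8.26 ± 0.30 (log2 fold change, 0.73 ± 0.14, adjusted p = 0.0024). The PA28 genes moved less: Psme1 differed by 0.10 ± 0.05 (adjusted p = 0.23), and Psme2 by 0.24 ± 0.06 (adjusted p = 0.0094), which is below the fold cutoff.

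Core and 19S genes were also higher in splenic B cells after soluble OVA, in a comparison that shares the PBS libraries with the one above. Compared with PBS, 29 of 49 members were called higher and 0 lower (10.5% and 6.72% of all tested genes), with a median log2 fold change of 0.27 against -0.0082 for all tested genes. Groups did not overlap for 36 members, all higher (19.1% of all tested genes). The alpha ring was called in 7 of 7, the constitutive beta ring in 5 of 7, the ATPases in 5 of 6, the other 19S subunits in 7 of 11, and the immunoproteasome in 2 of 3. This count rests in part on 1 library: without soluble OVA replicate 1, which had the highest level of its group in 45 of the 50 genes, 13 genes were called. Psmb7 was at 83.9, 70.5, and 70.3 CPM with soluble OVA and 58.4, 50.7, and 54.6 CPM with PBS (log2 fold change, 0.46 ± 0.08, adjusted p = 0.00097), the largest value among proteasome subunits. Psmd14 followed at 0.43 ± 0.08 and Psma7 at 0.42 ± 0.06. The 20S chaperone Psmg1, which with Psmg2 starts the alpha ring, was called at 0.33 ± 0.11 (adjusted p = 0.046).

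Among the immunosubunits, Psmb8 was at 320, 260, and 261 CPM in spleen with soluble OVA (log2 fold change to PBS, 0.34 ± 0.08, adjusted p = 0.0061), and Psmb9 was at 114, 97.5, and 90.0 CPM (0.34 ± 0.08, adjusted p = 0.0069). Without soluble OVA replicate 1 both stood at 0.25 and did not pass the fold cutoff. Psmb10 was at 85.7, 73.5, and 68.4 CPM, overlapping the PBS libraries (0.11 ± 0.08, adjusted p = 0.35). Psmb5 and Psmb6 differed from PBS by 0.31 ± 0.08 (adjusted p = 0.014) and 0.23 ± 0.08 (adjusted p = 0.041, below the fold cutoff), and Psmb5 no longer passed without PBS replicate 1 or 2 or without soluble OVA replicate 1. Psme1 and Psme2 differed by 0.032 ± 0.07 and 0.13 ± 0.09, and neither passed. Psmc3ip rose by 0.71 ± 0.17 (adjusted p = 0.0093).

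The direct comparison of OVA NPs with soluble OVA in spleen called 0 of 49 members in either direction by edgeR, and 0 had an unadjusted p under 0.05 (1199 of all 13840 tested genes). DESeq2 also called 0. Of all tested genes, edgeR called 0.137% higher and 0.101% lower, and DESeq2 0.441% and 0.376%. The members' median log2 difference was -0.028, with all values between -0.14 and 0.36. Groups did not overlap for 3 members, all lower with OVA NPs (7.58% of all tested genes), and for 0 higher. The widest separation among immunosubunits was in Psmb10, at 0.17 ± 0.08 (adjusted p = 0.59), while Psmb8 stood at -0.041 ± 0.08, Psmb9 at 0.066 ± 0.08, Psmb5 at 0.056 ± 0.09, Psmb6 at -0.071 ± 0.08, and Psmb7 at -0.089 ± 0.08. Psme1 and Psme2 stood at 0.068 ± 0.08 and 0.11 ± 0.09. The value at 0.36 was that of Psma8, which had few counts.

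**Figure D2:**
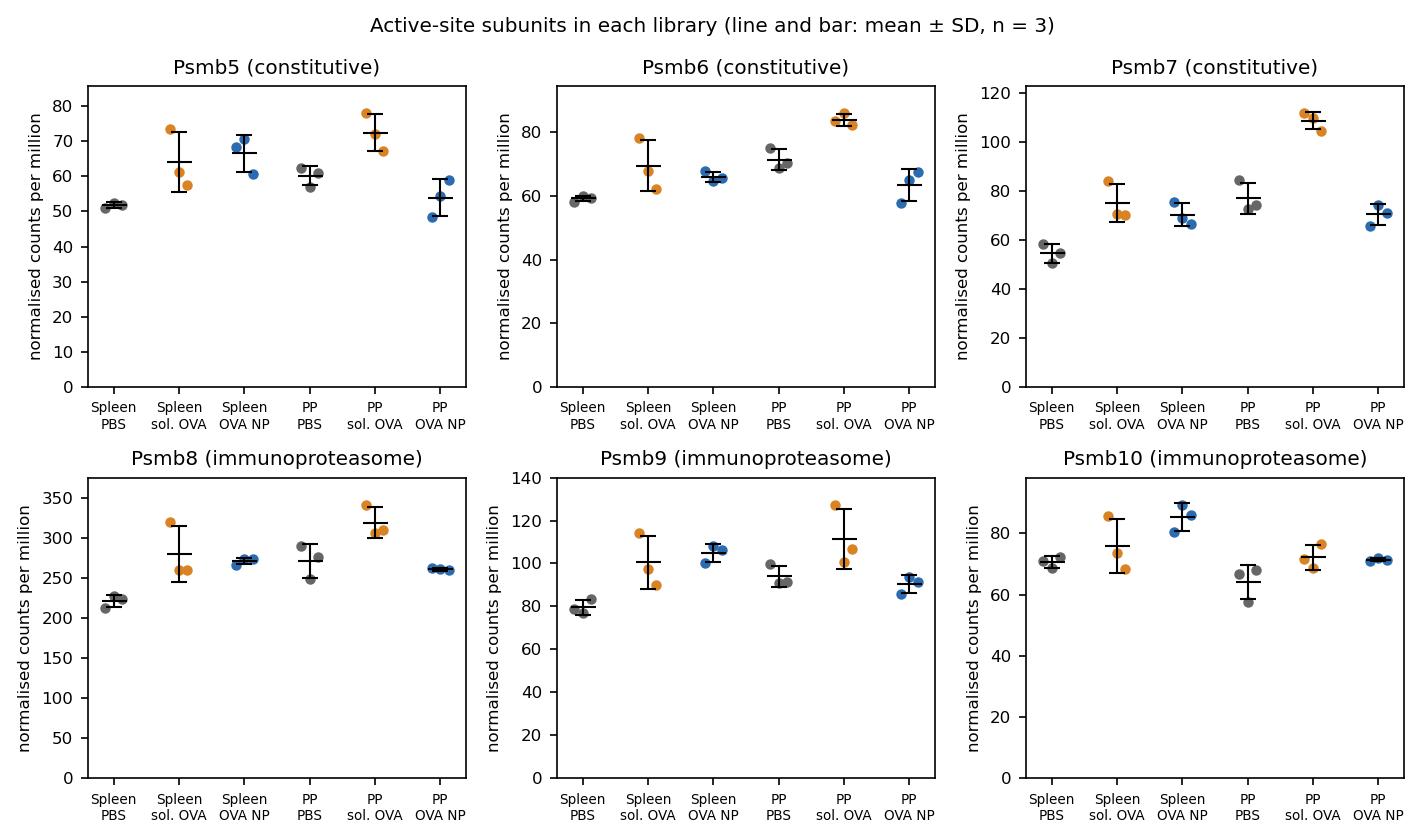
Normalised CPM of the 3 constitutive active-site genes (upper row) and the 3 immunosubunits (lower row) in each library, with mean ± SD for the 3 libraries of each tissue and treatment. Psmb5, Psmb6, and Psmb7 peak in PP soluble OVA (72.5, 84.0, and 109 CPM on average). The immunosubunits Psmb8 and Psmb9 peak there too (320 and 112 CPM), whereas Psmb10 is highest in spleen OVA NP (85.3 CPM).

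Proliferation genes moved beside the proteasome genes in spleen. All 12 of that list were called higher with OVA NPs and all 12 with soluble OVA, each against PBS, and 7 and 8 of 8 germinal center B cell markers were called higher. Mki67, a marker of cycling cells, had log2 fold changes of 1.63 ± 0.18 and 1.63 ± 0.12. In these bulk samples, more cells of a cycling type and more proteasome RNA per cell cannot be told apart. T cell markers were near 0 in spleen, as given above, and 2 of the 6 passed the count filter there, with neither called by edgeR or DESeq2 and 0 unadjusted p under 0.05.

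In PP, soluble OVA was followed by a rise of the constitutive core and of the 19S particle. Compared with PBS, 29 of 49 members were called higher and 1 lower, where 13.5% of all tested genes were called higher and 13.9% lower. The members' median log2 fold change was 0.35, against -0.017 for all tested genes, and groups did not overlap for 45 members that were higher with soluble OVA (22.1% of all tested genes). The calls took 6 of 7 alpha ring genes, 5 of 7 constitutive beta ring genes, 6 of 6 ATPases, 10 of 11 other 19S subunits, and Psmd10, a chaperone of the 19S base. Of the immunosubunits 0 of 3 and of the Psmg chaperones 0 of 4 were called by edgeR and by DESeq2, where 2 and 0 had an unadjusted p under 0.05. For so few genes, 0 called is near the share of all tested genes, and no difference between classes was tested.

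Among proteasome subunits, the largest rise in PP was in Psmd14, from 67.6, 66.8, and 62.5 CPM with PBS to 98.4, 106, and 96.3 CPM with soluble OVA. The groups did not overlap, and the log2 fold change was 0.60 ± 0.07 (adjusted p = 0.00041). Psmd13, a lid subunit, rose by 0.51 ± 0.08, Psma5 by 0.49 ± 0.08, Psmb7 by 0.48 ± 0.08, and Psmc3, an ATPase of the base ring, and Psmd12, a lid subunit, by 0.47 each. Psmb5 was at 62.3, 57.1, and 61.1 CPM with PBS and 78.0, 72.2, and 67.4 CPM with soluble OVA. These groups did not overlap, but the fold change of 0.26 ± 0.08 (adjusted p = 0.037) lay at the cutoff and was lost when any of 4 libraries was left out. Psmb6 differed by 0.22 ± 0.07 (adjusted p = 0.039), below the cutoff. Psmc3ip rose from 8.58, 6.96, and 7.80 CPM to 16.2, 17.8, and 17.3 CPM (log2 fold change, 1.12 ± 0.14, adjusted p = 0.00052).

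The immunosubunits in PP were higher with soluble OVA by amounts that did not pass. Psmb8 was at 291, 249, and 277 CPM with PBS and 342, 307, and 310 CPM with soluble OVA (0.22 ± 0.08, adjusted p = 0.074). Psmb9 was at 99.8, 90.7, and 91.4 CPM and at 127, 101, and 107 CPM (0.23 ± 0.09, adjusted p = 0.092). Both genes had soluble OVA libraries that were all above the PBS libraries. Psmb10 was at 66.6, 57.7, and 68.0 CPM and at 71.5, 68.5, and 76.6 CPM (0.16 ± 0.09, adjusted p = 0.22). Psme1 and Psme2 stood at 0.011 ± 0.06 and 0.046 ± 0.07. The 1 member called lower was Psme2b, at 28.7, 32.4, and 29.4 CPM with PBS and 22.3, 24.5, and 24.5 with soluble OVA (-0.35 ± 0.09, adjusted p = 0.021). Psme2b is a near copy of Psme2, so the division of reads between them is uncertain, and the call was lost when any of 5 of the 6 libraries was left out, with 0 genes then called lower.

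Between OVA NPs and PBS in PP, no member passed the test. By edgeR, 0 of 48 members were called in either direction, as was 0.0% of all tested genes in each direction, and 4 members had an unadjusted p under 0.05 (1573 of all 15798 tested genes). DESeq2 called 0 members, and 0.589% of all tested genes higher and 0.354% lower. The members' median log2 fold change was -0.073, and 9 members had OVA NP libraries all below the PBS libraries (10.5% of all tested genes), against 1 above, Psmb10 (6.77%). Psmb10 was at 70.9, 72.0, and 71.2 CPM with OVA NPs, a log2 difference of 0.17 ± 0.08 (adjusted p = 0.53). Psmb5 was at 48.3, 54.5, and 58.9 CPM (-0.15 ± 0.08, adjusted p = 0.57). Psmb8 and Psmb9 stood at -0.046 ± 0.08 and -0.046 ± 0.07, Psmb6 and Psmb7 at -0.16 ± 0.08 and -0.12 ± 0.08, and Psme1 and Psme2 at -0.040 ± 0.06 and 0.024 ± 0.08.

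Against soluble OVA, OVA NPs gave lower levels of most proteasome genes in PP. This comparison and that of soluble OVA with PBS share the soluble OVA libraries. Of 49 members, 37 were called lower and 0 higher (16.3% and 13.8% of all tested genes), with a median log2 difference of -0.42 against 0.025 for all tested genes. By unadjusted p, 40 members were under 0.05 (6482 of all 15599 tested genes), and DESeq2 called 38 lower (16.7% of all tested genes) and 0 higher. Groups did not overlap for 41 members that were lower with OVA NPs (25.6% of all tested genes). All 7 alpha ring, all 7 constitutive beta ring, all 6 ATPase, and all 11 other 19S genes were called, with 2 of 3 chaperones of 19S assembly, 2 of 6 activators and inhibitors (Psme3, the nuclear PA28γ activator, and Psmf1, the PI31 regulator), and 1 of 3 immunosubunits.

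Psmd14 was at 58.7, 59.7, and 65.0 CPM in the PP OVA NP libraries, all below the soluble OVA values given above (log2 difference, -0.70 ± 0.07, adjusted p = 0.00039). Psmb7 was at 65.6, 74.4, and 71.1 CPM with OVA NPs and 112, 110, and 105 CPM with soluble OVA (-0.62 ± 0.07, adjusted p = 0.0007). The largest differences after these were in Psmb2, a structural beta subunit, at -0.59 ± 0.08, Psmd13 at -0.58 ± 0.08, and Psmd1, the scaffold of the 19S base, at -0.57 ± 0.08. Psmb5 and Psmb6 fell past the threshold too, with log2 differences of -0.42 ± 0.09 and -0.39 ± 0.07. Psmc3ip had the largest difference, -0.97 ± 0.17 (adjusted p = 0.0033).

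Psmb8, at 263, 261, and 260 CPM with OVA NPs, was the immunosubunit called lower (-0.28 ± 0.08, adjusted p = 0.029), and it did not pass without soluble OVA replicate 1 (-0.21). Psmb9, at 85.7, 93.9, and 91.4 CPM, did not pass (-0.29 ± 0.10, adjusted p = 0.061), although its groups did not overlap. Psmb10 had means of 71.4 ± 0.59 CPM with OVA NPs and 72.2 ± 4.0 CPM with soluble OVA (log2 difference, -0.0039 ± 0.07, adjusted p = 0.98). Psme1 and Psme2 stood at -0.064 ± 0.07 and -0.034 ± 0.07. The 4 Psmg chaperones were between -0.38 and -0.15, and none passed by edgeR or DESeq2, where 1 had an unadjusted p under 0.05.

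**Figure D3:**
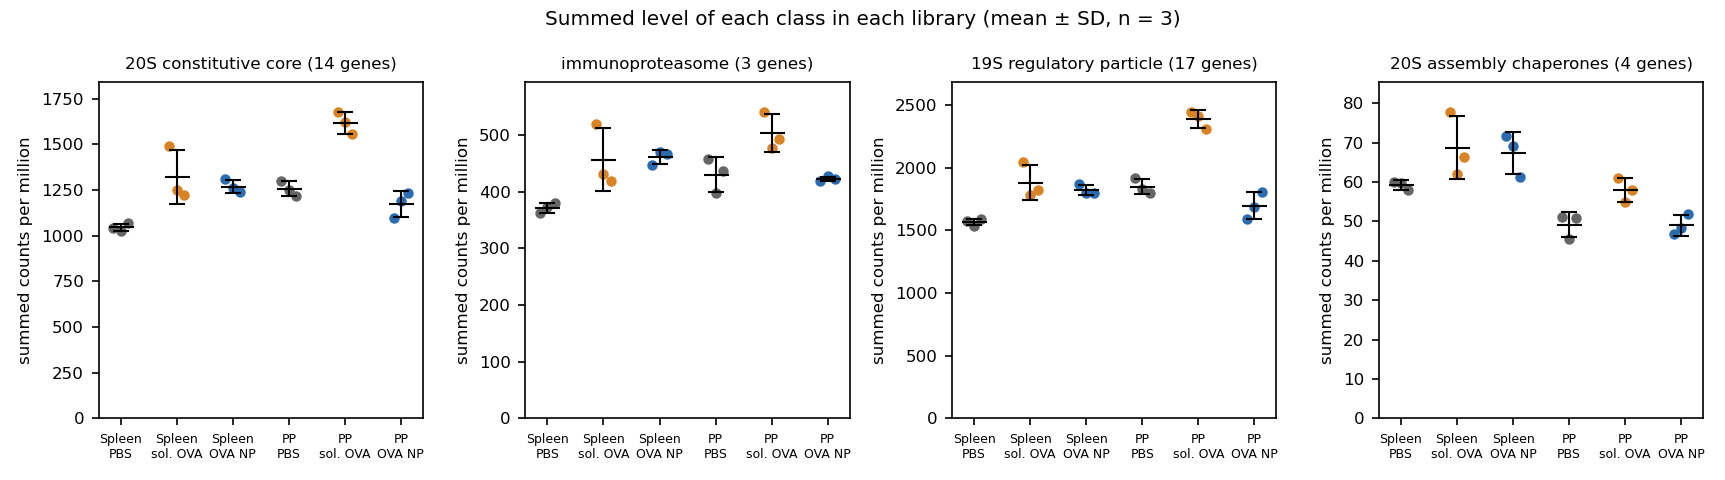
Summed normalised CPM of the constitutive 20S core (14 genes), the immunoproteasome (3), the 19S regulatory particle (17), and the 20S assembly chaperones (4) in each library, with mean ± SD for the 3 libraries of a group. The core and the 19S particle are highest in PP soluble OVA, at 1620 and 2389 CPM on average, and lowest in spleen PBS, at 1047 and 1566 CPM.

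Summed levels are given per class. The 14 core genes summed to 1258 ± 40 CPM in PP PBS, 1620 ± 60 CPM in PP soluble OVA, and 1174 ± 72 CPM in PP OVA NP, and to 1047 ± 20, 1323 ± 149, and 1269 ± 36 CPM in the respective spleen groups. The 17 genes of the 19S particle summed to 1849 ± 61, 2389 ± 73, and 1698 ± 107 CPM in PP and 1566 ± 25, 1881 ± 141, and 1822 ± 40 CPM in spleen. The 6 activators and inhibitors varied less, with group means between 532 ± 8.1 and 613 ± 8.3 CPM. Counts in PP moved with other signals that were not tested for their part in the result: all 12 proliferation genes were called higher with soluble OVA than with PBS and all 12 lower with OVA NPs than with soluble OVA, 4 of 6 T cell markers and 3 of 6 tested markers of monocytes and macrophages were called higher with OVA NPs than with soluble OVA, and the mitochondrial share was highest with OVA NPs, as given above.

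Between tissues, PP B cells had higher core and 19S levels than splenic B cells after PBS when libraries were scaled by TMM. In PBS mice, 22 members were called higher in PP and 3 lower (25.5% and 20.1% of all tested genes), with a median log2 difference of 0.20 against 0.0091. Scaled by library totals without TMM, 12 of 49 were called higher, a share close to the 22.8% of all tested genes under that scaling, so the excess of higher calls depends on the scaling. The largest differences in proteasome subunits were in Psmb7 (0.52 ± 0.08, adjusted p = 0.00054), Psmb2 (0.47 ± 0.06), Psmd8 (0.42 ± 0.05), and Psmd4, a ubiquitin receptor of the 19S particle (0.41 ± 0.07). Psmb8 and Psmb9 were higher by 0.32 ± 0.07 and 0.26 ± 0.07, both below the fold cutoff when scaled by library totals (0.24 and 0.18), with Psmb9 also lost in 3 of 6 fits without 1 library, and Psmb10 was not (-0.12 ± 0.08, adjusted p = 0.25). Psmb5 and Psmb6 were higher by 0.24 ± 0.07 (below the fold cutoff) and 0.29 ± 0.06, and Psmb6 was at 0.22 by library totals, below the cutoff. Psme1 and Psme2 stood at 0.018 ± 0.06 and 0.15 ± 0.07, and neither passed. The 3 members lower in PP were Psmd5, a 19S assembly chaperone (-0.36 ± 0.07), Psme4, the PA200 activator (-0.32 ± 0.07), and Psmg2 (-0.29 ± 0.09). The call of Psmg2 was lost by DESeq2 (adjusted p = 0.051) and in 3 of 6 fits without 1 library. Summed proliferation genes were also higher in PP than in spleen after PBS, as given above, and their part was not tested.

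After soluble OVA, 21 members were called higher in PP than in spleen and 2 lower (26.7% and 24.3% of all tested genes). Psmc3ip differed most at 1.07 ± 0.16, followed by Psmd14 (0.55 ± 0.09), Psmb7 (0.54 ± 0.08), and Psmb2 (0.53 ± 0.09). None of the immunosubunits passed, at 0.19 ± 0.09 for Psmb8, 0.15 ± 0.11 for Psmb9, and -0.073 ± 0.09 for Psmb10, by edgeR or DESeq2, and 0 of the 3 had an unadjusted p under 0.05. Psmb6 was called higher (0.27 ± 0.09), a call lost by library totals (0.20, adjusted p = 0.053 in edgeR) and in 3 of 6 fits without 1 library, and Psmb5 did not pass (0.18 ± 0.10). Psme1 and Psme2 stood at -0.0089 ± 0.09 and 0.054 ± 0.10. Psme2b (-0.38 ± 0.10) and Psmd5 (-0.32 ± 0.07) were lower. Proliferation genes were called higher in PP as well, such as Mki67 (1.86 ± 0.10) and Top2a (1.71 ± 0.09), and their part in these values was not tested.

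After OVA NPs, no member was called higher in PP than in spleen by edgeR or by DESeq2, where edgeR called 22.0% of all tested genes higher. The 8 of 49 members called lower were a share close to that of all tested genes (15.1%), and the median log2 difference was -0.060. An unadjusted p under 0.05 was found for 14 members (7624 of all 15466 tested genes). Groups did not overlap for 22 members, all lower in PP (30.0% of all tested genes). The 8 were the 20S chaperones Psmg4 (-0.62 ± 0.15), Psmg2 (-0.41 ± 0.10), and Psmg1 (-0.41 ± 0.14), the 19S chaperone Psmd5 (-0.54 ± 0.08), Psmd7 (-0.35 ± 0.09), Psma5 (-0.31 ± 0.07), Psme4 (-0.31 ± 0.06), and Psmb5 (-0.26 ± 0.08). The call of Psmb5 was lost by DESeq2 (-0.24, below the fold cutoff) and in 4 of 6 fits without 1 library, that of Psmg1 by DESeq2 (adjusted p = 0.051) and in 5 of 6, and that of Psmg4 in 1 of 6. Psmd5 was at 51.3 to 65.0 CPM in OVA NP and PBS libraries of spleen and at 39.5 to 43.4 CPM in those of PP. Psmb9 and Psmb10 had differences below the fold cutoff (-0.17 ± 0.06, adjusted p = 0.046, and -0.21 ± 0.06, adjusted p = 0.023), and Psmb8 (-0.0044 ± 0.05), Psmb6 (-0.0074 ± 0.07), Psmb7 (0.050 ± 0.07), Psme1 (-0.097 ± 0.06), and Psme2 (-0.043 ± 0.07) did not pass. Scaled by library totals without TMM, 16 members were called lower (23.2% of all tested genes). All 6 T cell markers were called higher in PP than in spleen after OVA NPs, and their part in these values was not tested.

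The difference between the tissues in the OVA NP effect was then tested directly, in a fit of 12 libraries with tissue, treatment, and their interaction. The effect of OVA NPs relative to PBS was lower in PP than in spleen for 18 of 49 members at an adjusted p under 0.05 and higher for 0 (3.54% and 0.872% of all tested genes). The members' median interaction was -0.31, against 0.0038 for all tested genes, and 46 of the 49 values were negative. DESeq2 gave 24 lower (5.26% of all tested genes) and 0 higher. The 18 were 5 of 7 constitutive beta ring genes, 2 of 7 alpha ring genes, 2 of 3 immunosubunits, 2 of 6 ATPases, 6 of 11 other 19S subunits, and Psme3. The largest were Psmb2 (-0.52 ± 0.08, adjusted p = 0.0049), Psmb5 (-0.50 ± 0.11, adjusted p = 0.017), Psmd14 (-0.50 ± 0.09, adjusted p = 0.0091), Psmb7 (-0.48 ± 0.11, adjusted p = 0.026), and Psmd7 (-0.46 ± 0.11, adjusted p = 0.028). Psmb9 had -0.44 ± 0.08 (adjusted p = 0.012) and Psmb8 -0.33 ± 0.09 (adjusted p = 0.047), whereas Psmb10 did not pass at -0.098 ± 0.10 (adjusted p = 0.66), nor did Psmb6 at -0.31 ± 0.09 (adjusted p = 0.06), Psme1 at -0.13 ± 0.08, or Psme2 at -0.20 ± 0.10. In the 12 fits without 1 library, Psmb2, Psmd14, and Psmb9 passed in all 12, whereas Psmb5 was lost in 4, Psmb7 in 6, Psmd7 in 9, and Psmb8 in 11. The count of members depended on single libraries too. It was 12 to 21 without PP OVA NP replicate 3, PP PBS replicate 2 or 3, or spleen OVA NP replicate 3, and 4 to 7 without any of the other 8 libraries, and it was 8 with no count filter and 8 with a replicate block. All 12 proliferation genes had a negative interaction past the same threshold.

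For soluble OVA the interaction called 0 members in either direction by edgeR (1.77% of all tested genes higher and 5.07% lower), with 1 unadjusted p under 0.05 (3468 of all 16541 tested genes) and 1 call, higher in PP, by DESeq2. The largest value among proteasome subunits was Psmd12 at 0.31 ± 0.10 (adjusted p = 0.074), and the median was 0.053. The effect of soluble OVA relative to PBS on Psmb8, Psmb9, and Psmb10 differed between tissues by -0.12 ± 0.12, -0.10 ± 0.14, and 0.057 ± 0.12, and that on Psmb5, Psmb6, and Psmb7 by -0.050 ± 0.12, -0.0085 ± 0.11, and 0.027 ± 0.12. For Psme1 and Psme2 it was -0.017 ± 0.11 and -0.083 ± 0.13.

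The ratio of each immunosubunit to the constitutive subunit it replaces was next compared, as the ratio of counts per kb of exon, for which library size cancels. The size of a ratio depends on the exon lengths used, whereas log2 differences between groups do not. An exact permutation test with 3 libraries against 3 cannot go below p = 0.1, and 27 ratios were tested, so no adjusted p was below 0.225. The ratio of Psmb10 to Psmb7 had the widest range of group means, from 1.34 to 2.61. It was 2.44, 2.72, and 2.66 in spleen PBS, 2.05, 2.09, and 1.95 in spleen soluble OVA, and 2.14, 2.60, and 2.60 in spleen OVA NP. In PP it was 1.59, 1.59, and 1.84 with PBS, 1.29, 1.25, and 1.47 with soluble OVA, and 2.17, 1.94, and 2.01 with OVA NPs. In PP the 3 treatments did not overlap. The log2 ratio was 0.61 higher with OVA NPs than with soluble OVA and 0.29 higher than with PBS (each exact two-sided permutation p = 0.1). Mean Psmb10 in PP was 64.1 CPM with PBS, 72.2 with soluble OVA, and 71.4 with OVA NPs. Mean Psmb7 was 77.0, 109, and 70.3 CPM in the same order. The difference in ratio from soluble OVA thus lay in a lower Psmb7, with Psmb10 nearly equal. In spleen, the ratio with soluble OVA differed from PBS by -0.36, and the ratio with OVA NPs was 0.26 higher than with soluble OVA (each exact p = 0.1), and OVA NPs and PBS overlapped (-0.096; exact p = 0.5). The log2 ratio in PP minus that in spleen was -0.64 after PBS and -0.61 after soluble OVA without overlap, and -0.26 after OVA NPs with overlap.

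**Figure D4:**
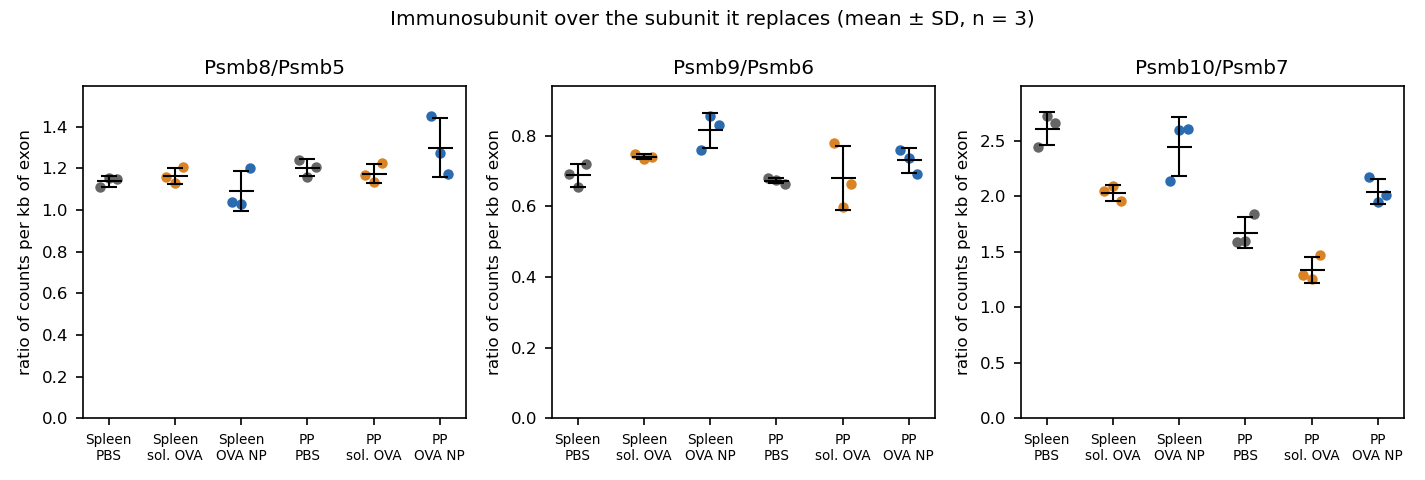
Ratio of counts per kb of exon of each immunosubunit to the constitutive subunit it replaces (Psmb8 to Psmb5, Psmb9 to Psmb6, Psmb10 to Psmb7) in every library, with mean ± SD for the 3 libraries of a group. The ratio of Psmb10 to Psmb7 runs from 1.34 on average in PP soluble OVA to 2.61 in spleen PBS, while that of Psmb8 to Psmb5 averages 1.09 in spleen OVA NP and 1.20 in PP PBS.

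The group means of the other ratios lay closer together, but not every single difference was smaller. Psmb9 to Psmb6 averaged 0.688 in spleen PBS, 0.740 in spleen soluble OVA, and 0.814 in spleen OVA NP, and these 3 groups did not overlap (log2 difference of OVA NPs from PBS, 0.24, exact permutation p = 0.1), a larger difference than that of Psmb10 to Psmb7 in this comparison. In PP it averaged 0.673, 0.680, and 0.730 with PBS, soluble OVA, and OVA NPs, and OVA NP libraries were above PBS libraries (0.12, exact permutation p = 0.1). Psmb8 to Psmb5 averaged between 1.09 and 1.20 in every group except PP OVA NP, where the libraries were at 1.45, 1.27, and 1.17 and overlapped those of spleen (log2 difference, 0.25, exact permutation p = 0.2), and the only separation among the 9 comparisons was between PP and spleen after PBS (0.078, exact permutation p = 0.1).

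Genes around the proteasome were taken from lists by function. Of 10 further subunits and partners, 9 were in the table, among them Pomp, the maturation factor of the core, Sem1, a small 19S subunit, Uchl5, a 19S deubiquitinase, and Txnl1, a thioredoxin-like protein of the 19S particle. In spleen 4 were called higher with OVA NPs than with PBS (Sem1, and Txnl1 by 0.44, Uchl5 by 0.42, and Pomp by 0.42) and 3 with soluble OVA (Pomp by 0.42, Uchl5 by 0.36, and Txnl1 by 0.36). In PP 5 were called higher with soluble OVA than with PBS, led by Uchl5 (0.68) and Txnl1 (0.54) and including Pomp (0.36), and 8 were lower with OVA NPs than with soluble OVA, led by Txnl1 (-0.59), Uchl5 (-0.57), and Pomp (-0.48). Of 14 ubiquitin and shuttling genes, which mark substrates and carry them to the proteasome, edgeR called 0 in spleen with OVA NPs against PBS (DESeq2, 0; 6 unadjusted p under 0.05), 1 with soluble OVA (Rps27a), and 4 in PP with soluble OVA against PBS (led by Rad23b, Ubqln1, and Nploc4), where 7 were lower with OVA NPs than with soluble OVA.

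Genes known to control proteasome transcription included some that differed in the direction opposite to the subunits. Among 11 regulators, Nlrc5, the activator of MHC class I and immunoproteasome genes, was called higher in spleen with OVA NPs than with PBS (0.38 ± 0.09) and than with soluble OVA (0.61, adjusted p = 0.0069). In PP, 6 were called lower with soluble OVA than with PBS and 0 higher by edgeR or DESeq2, where 7 had an unadjusted p under 0.05. These included Nfe2l1 (-0.36), which encodes NRF1, its partner Mafk (-1.22), Nlrc5 (-0.86), and Irf1, an interferon-inducible factor (-0.52), while 29 proteasome genes were higher in the same comparison. With OVA NPs against soluble OVA in PP, Nlrc5 (1.07) and Irf1 (0.67) were higher and Ngly1, the glycanase that processes NRF1, was lower (-0.30). Nfe2l1 was at 0.23 there, below the fold cutoff, and did not pass in the spleen comparisons (-0.079 with OVA NPs and -0.15 with soluble OVA, each against PBS).

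The MHC class I loading genes, which act on the peptides that the proteasome makes, moved apart from the core in PP. Of 10 genes, 6 were called lower with soluble OVA than with PBS, among them the class I heavy chains H2-K1 (-0.74) and H2-D1 (-0.70), the loading factor Tapbp (-0.65), and Tap1 (-0.30 ± 0.07), and 1 was higher (Pdia3, 0.32). The call of Tap1 was lost in 4 of 6 fits without 1 library, with values from -0.29 to -0.20. With OVA NPs against soluble OVA, 6 were higher, among them H2-K1 (0.84), B2m (0.82), and Tap1 (0.34). Psmb9, whose start as given above lies 225 bases from that of Tap1, had -0.29 ± 0.10 in that comparison. In spleen, 3 were higher with OVA NPs than with PBS (Pdia3 by 0.45, B2m by 0.32, and Calr by 0.29) and 1 with soluble OVA (Pdia3, 0.40).

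Proteasome genes make up most of the Reactome set named for activation of NF-κB in B cells. Of the 65 genes of that set in the table, 45 were proteasome genes and 20 were others, which encode B cell receptor adaptors (such as Bcl10 and Malt1), IκB kinases (Ikbkb, Ikbkg), NF-κB proteins (Nfkb1, Rela), their inhibitors (Nfkbia, Nfkbie), protein kinase C beta (Prkcb), and ubiquitin genes. In spleen with OVA NPs against PBS, 22 proteasome genes of the set were called higher and 0 lower, whereas 0 of the others were higher and 3 were lower (Nfkbia and Prkcb among them). Median log2 fold changes were 0.26 and -0.096. With soluble OVA against PBS in spleen, 27 proteasome genes were higher and 0 lower, and of the others 1 was higher (Rps27a) and 3 lower (Nfkbia, Nfkbie, and Prkcb).

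In PP both parts of the set again included calls in opposite directions. With soluble OVA against PBS, 28 proteasome genes of the set were higher and 1 lower, and 0 of the others were higher and 8 lower (such as Nfkbia, Nfkbie, Rela, Nfkb1, and Malt1), with medians of 0.35 and -0.28. With OVA NPs against soluble OVA, 36 proteasome genes were lower and 0 higher, and 6 others were higher and 0 lower, with medians of -0.44 and 0.091. All 18 members of the set past the threshold for the interaction of tissue and OVA NPs were proteasome genes, with 0 of the 20 others. Over all tested genes 3.54% were lower and 0.872% higher, so 0 of 20 is near the share of all genes. The count of 18 changed between fits, as given above.

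**Figure D5:**
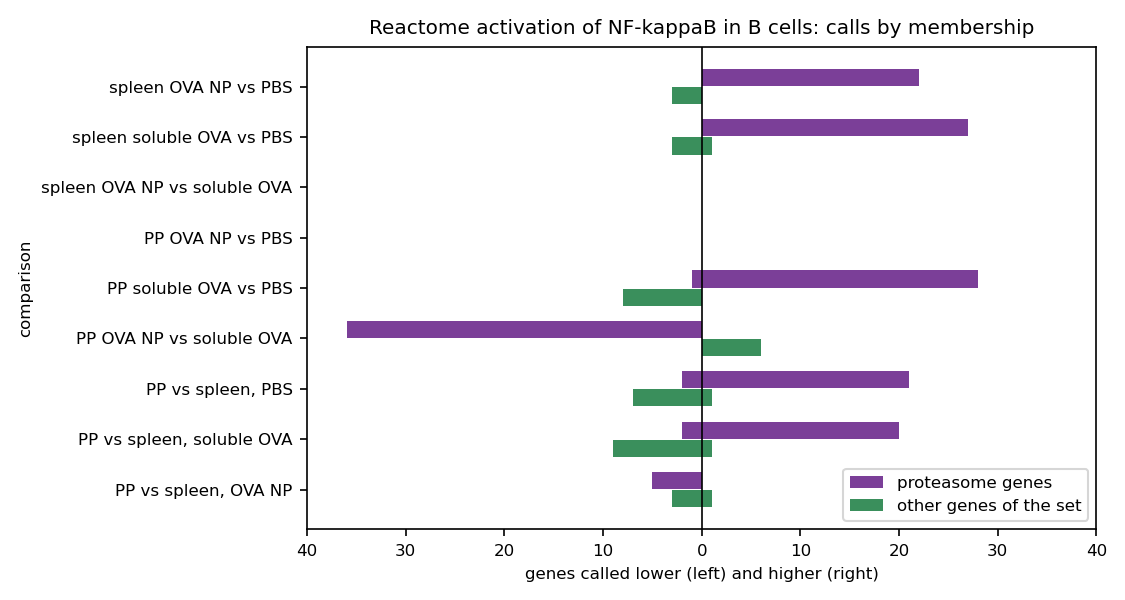
Number of genes of the Reactome set for activation of NF-κB in B cells called higher (right) or lower (left) in each of 9 comparisons, with proteasome genes in purple and the other genes in green. In PP soluble OVA versus PBS, 28 proteasome genes point right and 8 other genes point left, and PP OVA NP versus soluble OVA shows 36 and 6 in the opposite directions.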

How the data were processed

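RNA-Seq was done on B cells of 18 samples (3 in each of 6 groups), with polyA selection and paired-end reads. Per the labels and the methods, the authors trimmed reads with Cutadapt 2.3, aligned them to GRCm38 with STAR 2.7.8a, and counted with RSEM 1.3.3. The deposited values are expected counts per gene, which were whole numbers as deposited and were not normalised. Library totals of 14177253 to 30052297 counts set a 3-count floor of 0.0998 to 0.212 CPM, which covers counting error only.

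Each comparison was fitted over all genes passing filterByExpr (minimum count 10, minimum total 15) with TMM scaling in edgeR 4.0.16 (R 4.3.3) by the robust quasi-likelihood test on its 6 libraries (12 for the interactions), and p-values were adjusted by the Benjamini-Hochberg method across every gene in the fit. Genes with an adjusted p under 0.05 and a log2 fold change beyond 0.25 were called, and interactions were called by adjusted p alone. Recovery of known changes was tested on simulated data. CPM values used TMM factors over all 18 libraries, and levels per kb used the union exon length of GENCODE M21. DESeq2 1.42.0 was an alternative, with DESeq2 size factors, library totals, no count filter, all libraries in one fit, a replicate block, and single libraries left out. By rule, the 6 active-site subunits, Psme1, and Psme2 were given in every comparison, with up to 12 called members per direction by absolute log2 fold change (mean of at least 1 CPM), and up to 3 called genes per direction of each list plus Pomp, Nfe2l1, Tap1, and Mki67. Some genes that this rule names are not reported here. Other members and the genes of the Reactome set were named after their values were seen. The members and lists were chosen with earlier results of these data known. No block was used in the main test, and fits with a replicate block are given below. Deviations of same-numbered samples correlated at -0.237 to 0.306, which cannot show whether these samples came from the same mice.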

Additional observations from a re-analysis of the deposited data

Results flagged for a closer look

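The effect of OVA NPs relative to PBS differed between PP and spleen B cells in 18 proteasome genes by the interaction test of edgeR (adjusted p under 0.05), all lower in PP. Those named individually had interaction log2 values of -0.52 for Psmb2, -0.50 for Psmb5, -0.50 for Psmd14, -0.48 for Psmb7, -0.46 for Psmd7, -0.44 for Psmb9, -0.42 for Psmd1, -0.38 for Psmb1, -0.38 for Psma6, -0.37 for Psma7, -0.37 for Psmd8, -0.36 for Psmc1, and -0.33 for Psmb8. In the 12 fits without 1 library, Psmb2, Psmd14, and Psmb9 passed in all 12, and the call was lost in 3 for Psmd8, 4 for Psmb5 and Psmb1, 6 for Psmb7 and Psma6, 8 for Psma7 and Psmc1, 9 for Psmd7, 10 for Psmd1, and 11 for Psmb8. Proliferation genes differed in the same direction (12 of 12), and their part in these values was not tested.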

How the results depend on the processing

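The counts of members called in the spleen comparisons with PBS and in PP soluble OVA versus PBS or OVA NP kept their direction under every alternative run. Counts that changed by more than 1.5 times were as follows, and the cause was not tested. By library totals without TMM, members higher in PP than spleen fell to 12 after PBS, and those lower rose to 5 after soluble OVA and 16 after OVA NPs, and over all tested genes the OVA NP comparison went from 3398 higher and 2337 lower to 2998 and 3589. With no count filter, members lower in PP soluble OVA versus PBS were 0 and the OVA NP interaction had 8. In one fit of all libraries, 1 member was higher in PP OVA NP versus soluble OVA and 4 were lower in PP than spleen after soluble OVA. DESeq2 called 1 for the soluble OVA interaction. Correlations of deviations between same-numbered samples (-0.237 to 0.306) do not settle whether the samples are paired. With a replicate block the OVA NP interaction had 8 members, PP OVA NP versus soluble OVA had 31, Psmb8 and Psmb5 in that comparison (adjusted p = 0.072 and 0.052) Psmb5 in PP soluble OVA versus PBS (adjusted p = 0.075), and Psmb5 and Psmg1 in PP versus spleen after OVA NPs (adjusted p = 0.074 and 0.065) no longer passed, nor did the OVA NP interactions of Psmd7 (adjusted p = 0.056), Psmd1 (0.075), Psmb8 (0.086), Psma7 (0.0503), and Psmc1 (0.051). With 3 pairs, a blocked permutation test cannot go below p = 0.25.

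Leaving out 1 library at a time, the count of members higher in spleen soluble OVA versus PBS ran from 13 to 30 (13 without soluble OVA replicate 1), members lower in PP soluble OVA versus PBS from 0 to 1, members lower in PP than spleen after OVA NPs from 5 to 8 (5 without spleen OVA NP replicate 2), the OVA NP interaction from 4 to 21, and the soluble OVA interaction from 0 to 1.

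Values near 0 changed sign. By library totals these were Psme1 in PP soluble OVA versus PBS (-0.0096), Psmb10 in PP OVA NP versus soluble OVA (0.014; 0.0086 in one fit of 9 libraries), Psme2 in PP versus spleen after soluble OVA (-0.014), and Psmb7 in PP versus spleen after OVA NPs (-0.050). Psme1 in PP versus spleen after PBS was -0.057 by library totals, -0.019 with no filter, and -0.00056 in one fit of 18 libraries, and after soluble OVA it was 0.013 by DESeq2 and 0.013 with its size factors. After OVA NPs, PP versus spleen gave, by DESeq2, its size factors, and no filter, 0.0092, 0.0093, and 0.0094 for Psmb8 and 0.0058, 0.0055, and 0.0066 for Psmb6. The soluble OVA interaction of Psmb6 was 0.0012, 0.0031, 0.028, and 0.00012 by DESeq2, its size factors, no filter, and one fit, and that of Psme1 was 0.019 with no filter.

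With 1 library left out, log2 values crossed 0 in these ranges. In spleen OVA NP versus soluble OVA they were -0.0029 to 0.16 for Psmb5, -0.13 to 0.012 for Psmb6, and -0.084 to 0.054 for Psmb8. In spleen soluble OVA versus PBS, Psme1 ran from -0.058 to 0.088. In PP OVA NP versus PBS they were -0.11 to 0.0076 for Psmb8, -0.073 to 0.0022 for Psmb9, and -0.028 to 0.062 for Psme2, and Psmb10 ran from -0.071 to 0.025 in PP OVA NP versus soluble OVA. In PP versus spleen they were -0.017 to 0.037 for Psme1 after PBS, -0.15 to 0.018 for Psmb10, -0.062 to 0.085 for Psme1, and -0.028 to 0.18 for Psme2 after soluble OVA, and -0.038 to 0.034 for Psmb6, -0.00021 to 0.10 for Psmb7, -0.034 to 0.018 for Psmb8, and -0.10 to 0.0044 for Psme2 after OVA NPs. For the soluble OVA interaction they were -0.11 to 0.073 for Psmb5, -0.069 to 0.095 for Psmb6, -0.014 to 0.13 for Psmb7, -0.20 to 0.011 for Psmb9, -0.0048 to 0.16 for Psmb10, -0.059 to 0.094 for Psme1, and -0.15 to 0.057 for Psme2. Log2 ratios ran from -0.019 to 0.037 for Psmb8 to Psmb5 in PP versus spleen after soluble OVA, -0.095 to 0.094 for Psmb9 to Psmb6 in PP soluble OVA versus PBS, and -0.067 to 0.0013 for Psmb9 to Psmb6 in PP versus spleen after PBS.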
